A study of Homo sapiens with 24 samples.

Results

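The baseline of translation was described in K562 cells before knockdown, as the ribosome footprints of each protein-coding gene against its cytosolic RNA. K562 is an established human chronic myelogenous leukaemia line with erythroid features. All cells carried a CRISPR interference system that doxycycline switches on, and these cells held sgGal4, a control guide, and were taken at day 0. The 4 libraries were 2 of footprints and 2 of RNA, out of 24 in the series, which has 12 groups of 2 libraries: sgGal4 or sgDDX3 cells (the second guide is aimed at the RNA helicase gene DDX3X), at day 0, day 3 and day 14, in both assays. Doxycycline at 50 ng/ml is listed for every sample, and the labels do not say whether cells at day 0 had received it. Nothing in the labels tells whether 2 replicates came from 2 cultures, so each p-value reflects the spread between libraries that may be technical replicates. Members were all 19197 protein-coding genes of 57992 genes in the tables. Of these, 1477 had 0 counts in all 4 libraries and 11413 passed the filter on low counts, which asks for an average of at least 2 CPM (counts scaled to a protein-coding total of 1e+06) over both assays in the whole series.

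Ribosome profiling sequences the short RNA pieces that ribosomes shield from nuclease, so that the reads of a gene follow the number of ribosomes on its mRNAs. The ratio of footprints to RNA, called translational efficiency, is set mainly by how often ribosomes start on an mRNA, and it differs between mRNAs because of their 5' leaders, structures, upstream reading frames and length. Growing cells hold large amounts of mRNA for ribosomal proteins and elongation factors, which begin with a terminal oligopyrimidine (TOP) tract that ties their translation to growth signals. Reads were counted over whole genes here while footprints lie mainly in the coding region, so a ratio also holds the part of the transcript that is coding, whose length was not used here. Ratios are given as log2 values with 0 set at the median protein-coding mRNA.

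RNA libraries held 17152557 and 14342540 counts and footprint libraries 13346762 and 15240512. Protein-coding genes took 84.3% and 84.0% of the RNA counts and 68.6% and 69.1% of the footprint counts. A count of 0 allows up to 0.207 and 0.249 CPM in the RNA libraries and 0.327 and 0.285 CPM in the footprint libraries, for counting error only. Replicates were close, with a median absolute log2 difference of 0.0745 between RNA libraries and 0.110 between footprint libraries. The line's identity was checked on marker genes. Of 12 erythroid markers, 10 had at least 2 CPM in RNA, and the list summed to 2329 and 2393 CPM (GATA1, an erythroid transcription factor, had 209 and 210.5 CPM). The largest part of that sum came from a single member, the transferrin receptor TFRC, whose values are given below. The summed level was 146 and 146 CPM for 10 myeloid markers, 23.1 and 24.6 CPM for 8 megakaryocytic, 15.02 and 13.3 CPM for 10 lymphoid, and 38.1 and 35.5 CPM for 9 stromal or epithelial markers. At least 2 CPM in RNA was reached by 6 myeloid, 3 megakaryocytic, 2 lymphoid and 1 stromal or epithelial marker. The markers at 0 counts in both RNA libraries were MPO and ELANE (myeloid), PF4 and PPBP (megakaryocytic) and CD2, CD8A and MS4A1 (lymphoid). The same held for KRT5, KRT14, CDH1, COL1A2 and COL3A1 (stromal or epithelial).

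The ratio spread widely over genes, with a small standard error beside that spread. This error covers the spread between libraries, not coding length or how reads were assigned to genes. A gene is called high or low here when its ratio differed from the median mRNA at an adjusted p of at most 0.05 by the quasi-likelihood test of edgeR. By this rule 4291 genes were high (37.6% of 11413) and 4252 were low (37.3%). Of these, 1540 were at least 2-fold high (13.5%) and 1635 at least 2-fold low (14.3%). A gene that entered the test through only 1 assay had to differ, and there were 452 such genes with under 2 CPM in RNA and 320 with under 2 CPM in footprints (91 more were under 2 CPM in both at day 0). The counts for groups of genes below are therefore over the 10550 genes with a mean of at least 2 CPM in both assays, of which 3864 were high (36.6%), 3969 low (37.6%), 1129 at least 2-fold high (10.7%) and 1375 at least 2-fold low (13.0%). Among the 10550 genes the middle 80% of ratios spanned 4.52-fold, from -1.14 to 1.03, and the middle 90% spanned 7.36-fold. The standard deviation of the log2 ratio over genes was 0.91, against a median standard error (SE) of 0.11. For comparison, log2 RNA had a standard deviation of 1.75 over the same genes and log2 footprints 1.86. Footprints followed RNA over genes with a Pearson r of 0.873 and a Spearman rho of 0.867 (10550 genes, given as a description since genes are not independent and the libraries are shared). Genes with more counts had slightly higher ratios: the median was -0.12 in the quintile with the lowest mean CPM of both assays and 0.24 in the highest quintile.

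**Figure D1:**
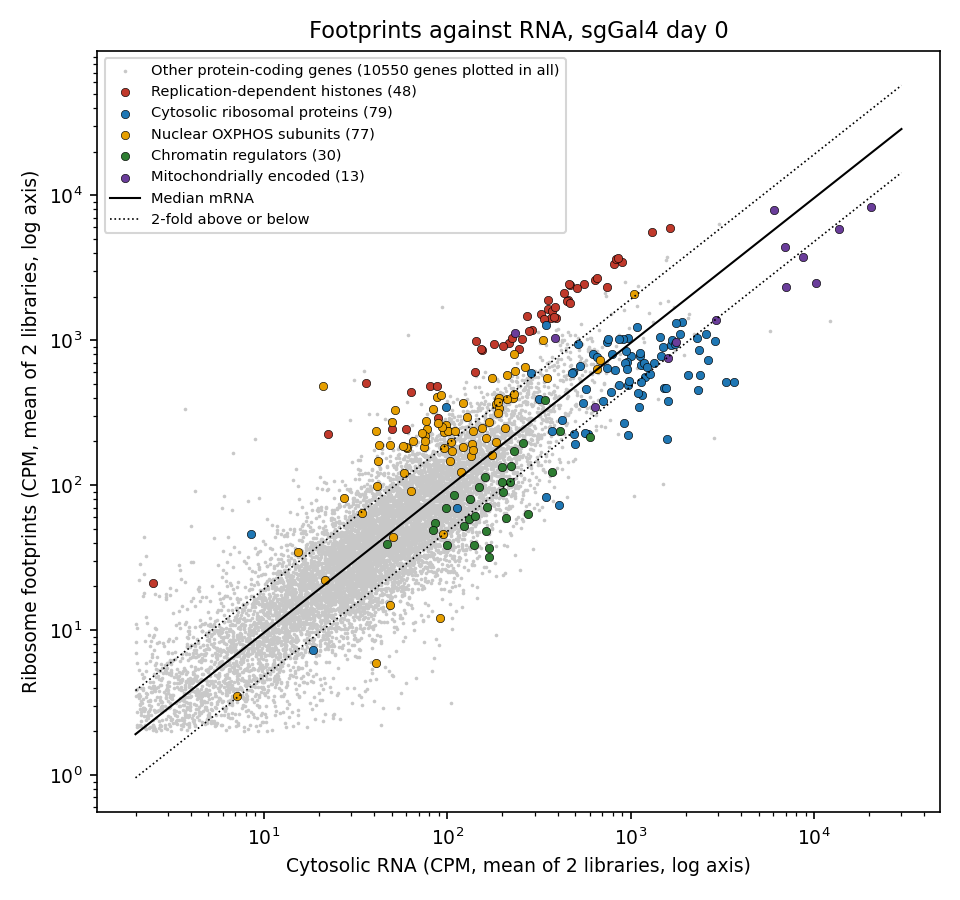
Mean footprint CPM against mean RNA CPM of 2 libraries each, both on log axes, for 10550 protein-coding genes of sgGal4 cells at day 0. The solid line is the median mRNA and the dotted lines lie 2-fold above and below it. All 48 histone genes lie above the upper dotted line, while the ribosomal proteins and chromatin regulators lie mostly under the solid line.

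Functional groups separated along this range. At the high end stood replication-dependent histones (median 2.20), the proteasome (1.12), nuclear-encoded subunits of oxidative phosphorylation (OXPHOS, 1.12), mitochondrial ribosomal proteins (1.07) and chaperones of the endoplasmic reticulum (ER, 0.97). At the low end stood the mitochondrially encoded mRNAs (-1.01), elongation factors with other TOP mRNAs (-0.98), chromatin regulators (-0.94), both sets of cytosolic ribosomal proteins (-0.75 and -0.69) and ZNF genes (-0.54). The median over all 10550 genes was -0.02.

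**Figure D2:**
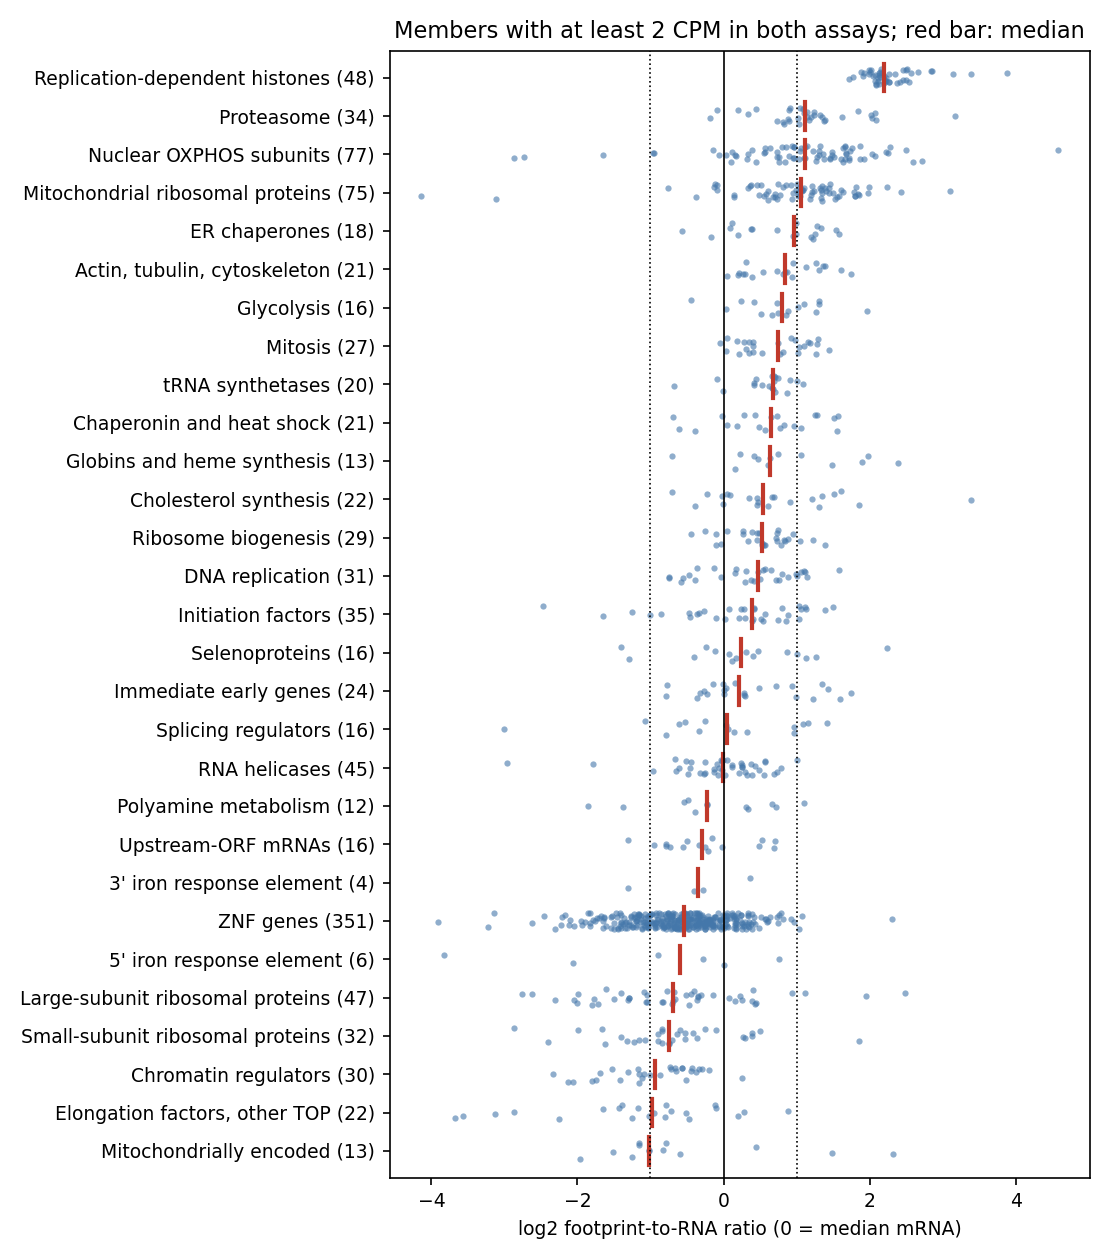
The log2 footprint-to-RNA ratio (horizontal axis, 0 is the median mRNA, dotted lines at 2-fold) of each member, as a point, in 29 groups, for members with at least 2 CPM in both assays (number in brackets). Red bars are medians and the vertical scatter within a row is only for legibility. Histones lie furthest to the right with a median of 2.20, and the mitochondrially encoded mRNAs have the lowest median, -1.01.

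The mRNAs of elongation factors, other listed TOP mRNAs and ribosomal proteins were mostly low. EEF1A1, which brings aminoacyl-tRNAs to the ribosome, has more RNA counts than any other nuclear protein-coding gene, with no correction for length. It had 12323 and 12256 CPM in RNA and 1271 and 1423 CPM in footprints. Its ratio was -3.12 ± 0.12 (SE), 8.71-fold under the median mRNA (adjusted p = 4.41e-16). EEF2, which moves the ribosome along the mRNA, had 5736 and 5775 CPM in RNA and 1171 and 1139.5 CPM in footprints, and a ratio of -2.25 ± 0.10 (adjusted p = 6.13e-15). No pseudogene is named after EEF2 in the tables. PABPC1, the poly(A)-binding protein, had 2816 and 2852 CPM in RNA and 219.5 and 204 CPM in footprints and a ratio of -3.67 ± 0.11 (adjusted p = 8.84e-18). EIF4B, a helper of the initiation helicase, was at 1044 and 1052 CPM in RNA and 86.1 and 82.7 CPM in footprints, or -3.57 ± 0.10 (adjusted p = 3.19e-18). In each of these 4 genes both footprint libraries lay far below both RNA libraries. In the list of elongation factors and other TOP mRNAs, 17 of 22 members were low, 11 of them at least 2-fold, and 3 were high, none of them 2-fold. The list is not uniform. RACK1, a scaffold on the small ribosomal subunit with 2051 and 2068 CPM in RNA and 1367 and 1469 CPM in footprints, was only -0.47 ± 0.09, and EIF3K, a subunit of initiation factor 3, was the highest at 0.88 ± 0.07.

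Ribosomal proteins showed the same direction with a wide spread. Of 47 large-subunit genes, 34 were low (19 at least 2-fold) and 10 high (3 at least 2-fold). Of 32 small-subunit genes, 25 were low (10 at least 2-fold) and 6 high (1 at least 2-fold). RPLP0, which anchors the ribosomal stalk, had 3588 and 3721 CPM in RNA and 514 and 521 CPM in footprints, and a ratio of -2.75 ± 0.10 (adjusted p = 2.34e-16). Among the other abundant large-subunit mRNAs, the ratio was -2.62 ± 0.10 for RPL13A, -1.80 ± 0.09 for RPL3 and -1.49 ± 0.10 for RPL4. RPS3, at the mRNA entry side of the small subunit, had 2546 and 2616 CPM in RNA and 1052 and 1152 CPM in footprints and a ratio of -1.16 ± 0.08 (adjusted p = 3.09e-11). RPS2 was at -1.99 ± 0.08 and RPS18 at -1.40 ± 0.10. At the other end RPL41, which encodes the smallest ribosomal protein, was at 1.96 ± 0.11 and RPL36 at 0.94 ± 0.09.

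Processed pseudogenes, copies of spliced mRNA in the genome, can take short reads from their parent gene, and ribosomal proteins have many. All 79 ribosomal protein genes had at least 1 pseudogene named after them in the tables, and the ratio moved with their number. The median was -0.31 for the 18 genes with 1 to 4 pseudogenes, -0.75 for the 35 with 5 to 19, and -1.05 for the 26 with 20 or more. When the counts of pseudogenes (and of readthrough genes that carry the gene's name) were added to the gene, these medians became -0.17, -0.45 and -0.22, and the medians of the whole lists moved from -0.69 to -0.23 (large subunit) and from -0.75 to -0.46 (small subunit). The median of elongation factors and other TOP mRNAs moved from -0.98 to -0.57 in the same way. Single genes kept low values after this sum: -2.35 for RPLP0, -1.24 for RPL3 and -0.91 for RPS3. So did EEF1A1 at -2.08 (49 pseudogenes), PABPC1 at -3.53 (13) and EIF4B at -2.52 (9). Others did not: RPL36A went from -1.29 to 1.59 (52 pseudogenes), RPS10 from -0.64 to 1.00 (14), and RPL17, at 2.48, came down to 0.31 (49). The sum holds only reads that were counted to a gene. Reads with several matches, if left out at counting, are not in it, so a low value after the sum is not shown to be free of copies. Values of single ribosomal protein genes are therefore uncertain.

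Most annotated starts of these mRNAs carry a pyrimidine tract, but not all. Starts are shown for low mRNAs with many RNA counts, 2 of which (RPL4 and RPL3) have no tract at the annotated base, and beside them for a histone mRNA and 2 chromatin regulators, one of each kind. Each line gives 10 bases before the annotated start and 15 bases from it, 5' to 3' on the mRNA strand, from the RefSeq promoter table of GRCh38.p14, and capitals mark a run of C and T that begins with C at the start and holds at least 4 more bases.
EEF1A1 (chr6:73521018-73521042, minus strand): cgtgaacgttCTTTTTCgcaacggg
EEF2 (chr19:3985449-3985473, minus strand): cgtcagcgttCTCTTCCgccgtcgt
TPT1 (chr13:45341169-45341193, minus strand): ctgagtcggcCTTTTCCgcccgctc
RPLP0 (chr12:120201097-120201121, minus strand): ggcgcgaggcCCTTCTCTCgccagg
RPL13A (chr19:49487598-49487622, plus strand): aaacctcctcCTTTTCCaagcggct
RPL4 (chr15:66504841-66504865, minus strand): cgggagtggtaagcacttccttttc
RPL3 (chr22:39319609-39319633, minus strand): gccgaccggcctctaccggcgggat
RPS3 (chr11:75399508-75399532, plus strand): cgagccacttCCTTTCCTTTCagcg
RPS18 (chr6:33272065-33272089, plus strand): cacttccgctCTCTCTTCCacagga
RACK1 (chr5:181243892-181243916, minus strand): gcttttctctCTCTCTTTCactgca
H1-2 (chr6:26056456-26056480, minus strand): gcgctgcttcatcggcgctttgcca
KMT2D (chr12:49060780-49060804, minus strand): ggatccctccgccgctccgctccaa
ARID1A (chr1:26696005-26696029, plus strand): tccctccctcCTCCTTTCTCCggca
TPT1, an abundant growth-related mRNA, had 1582 and 1576 CPM in RNA and 199.7 and 213 CPM in footprints and a ratio of -2.87 ± 0.11 (adjusted p = 1.05e-15). RACK1 and RPLP0 have tracts of the same length but ratios of -0.47 and -2.75. RPL4 and RPL3, without a tract at the annotated start, were at -1.49 and -1.80. H1-2 and KMT2D have none either, with ratios of 1.92 and -1.42, and ARID1A, with a tract of 11 bases, was at -0.73.

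Outside the named TOP mRNAs the tract went with lower ratios too, by a small amount. Of 35116 starts in the RefSeq table, 4.07% have the tract. Among 6181 genes with 1 listed start and at least 2 CPM in both assays, the 366 with a tract (5.92%) had a median ratio of -0.25 and the 5815 without it 0.04. At least 2-fold low were 20.5% of genes with the tract and 12.6% of the others. Without ribosomal proteins the 325 genes with a tract still had a median of -0.19, and -0.18 when the other listed TOP mRNAs were left out as well (314 genes). Among genes with no overlapping gene, small RNA gene, pseudogene or readthrough partner in the tables, the medians were -0.20 with the tract (98 genes) and 0.14 without it (2202 genes). Within ribosomal proteins the 41 with a tract at the annotated start had a median of -0.67 and the 12 without one there -0.56. A run of C and T that begins further in, as in the printed RPL4 sequence, does not count by this rule. The 12 are therefore not shown to lack a tract.

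Base composition of the first 50 bases graded the ratio as well. The quintile of genes with the lowest GC content (30% to 60%) had a median of 0.17, and the next quintiles had 0.17, 0.11, -0.03 and, at 76% to 98% GC, -0.27. The share at least 2-fold high went from 17.5% in the lowest quintile to 4.77% in the highest, and the share at least 2-fold low from 10.8% to 20.5%. Over the 6181 genes the Pearson r of GC and ratio was -0.178 and Spearman's rho -0.187. Among genes without overlaps or named copies the medians of the lowest and highest quintiles were 0.33 (468 genes) and -0.17 (441 genes). An ATG in the first 50 bases went with a median of 0.11 (2119 genes) against -0.02 without one (4062 genes). The quartiles of all these classes overlap widely, so none of these features sorts single genes.

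**Figure D3:**
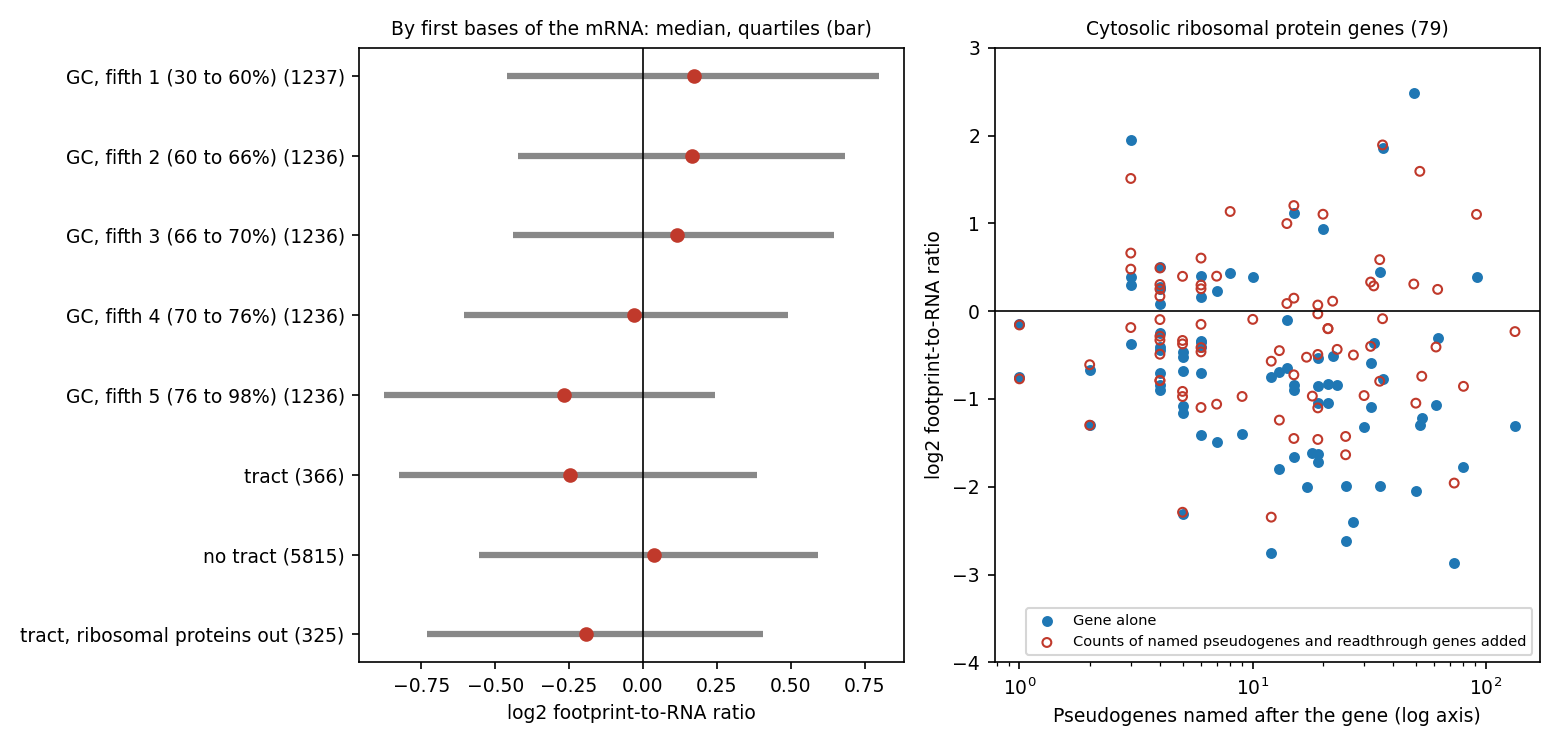
Left, the median (red point) and quartiles (bar) of the log2 footprint-to-RNA ratio for genes with 1 listed start, by quintile of GC content in the first 50 bases and by the pyrimidine tract (number of genes in brackets). Right, the ratio of 79 ribosomal protein genes against the number of pseudogenes named after them on a log axis, alone (filled) and with the counts of named pseudogenes and readthrough genes added (open). The medians go from 0.17 to -0.27 over the quintiles, and many open circles lie above their filled partners.

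Initiation factors outside the TOP list lay on both sides. Of 35, 21 were high (7 at least 2-fold) and 9 low (4 at least 2-fold), with a median of 0.40. EIF4A3, a helicase of the exon junction complex, was the highest at 1.5 ± 0.07, with 99.2 and 111 CPM in RNA and 282 and 287 CPM in footprints. EIF6, which keeps the large subunit from joining too early, was at 1.38 ± 0.09, and EIF5A, which helps the ribosome through difficult peptide bonds, at 0.51 ± 0.10. The lowest was EIF4EBP2, an inhibitor of cap-dependent initiation, at -2.47 ± 0.08. EIF4A2, a form of the cap-complex helicase, followed with 505 and 496 CPM in RNA and 139 and 165 CPM in footprints (-1.65 ± 0.11). EIF1, which guards start codon choice, had 679 and 681 CPM in RNA and 686 and 685 CPM in footprints (0.08 ± 0.11, adjusted p = 0.518, and 0.25 and 0.0360 with the counts of its 7 named pseudogenes). Of 20 cytosolic tRNA synthetases, 17 were high (2 at least 2-fold) and 1 low, with a median of 0.67. GARS1, for glycine, was at 0.71 ± 0.10, while IARS1, for isoleucine, was at -0.09 ± 0.10 (adjusted p = 0.4). Of 29 genes of ribosome biogenesis, 23 were high (3 at least 2-fold) and 1 low (median 0.53). The nucleolar methyltransferase FBL was at 0.88 ± 0.09. NCL, nucleolin, was at 0.05 ± 0.19 (adjusted p = 0.831).

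Histone mRNAs had the most footprints for their RNA of all groups examined. Replication-dependent histone mRNAs lack a poly(A) tail, end in a stem-loop and serve S phase, when the cell must coat new DNA. They took 1.83% and 1.87% of protein-coding counts in the RNA libraries and 8.13% and 7.73% in the footprint libraries, 4.28 times as much. Of 64 genes 57 were tested and 48 had at least 2 CPM in both assays, and all 48 were at least 2-fold high, between 1.71 and 3.89. Their quartiles were 2.08 and 2.45, so the group was also narrow. H1-2, a linker histone, had 1649 and 1620.0 CPM in RNA and 5899 and 5940.5 CPM in footprints (1.92 ± 0.09, adjusted p = 3.7e-14). H1-4, another linker histone, had 1303 and 1329.7 CPM in RNA and 5885 and 5253 CPM in footprints (2.15 ± 0.10). H2AC11, an H2A gene, was at 2.00 ± 0.10 and H4C12, an H4 gene, at 2.17 ± 0.10. The highest of the 48 was H2BC6, with 35.6 and 36.6 CPM in RNA and 547 and 472 CPM in footprints (3.89 ± 0.10).

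Histone genes of 1 class are near-identical in their coding sequence, so the split of reads among them is uncertain, while the sum over the group is less so. The other 9 tested histone genes had footprints with almost no RNA. They passed the filter through their footprints, so a high ratio was fixed in advance for them. H3C11, H4C13 and H4C16 had 0 counts in both RNA libraries, with footprints of 23.2 and 20.7, 30.7 and 27.0, and 22.7 and 26.0 CPM. Against a floor of 3 counts over both RNA libraries (0.114 CPM) they were at least 201-fold, 264-fold and 223-fold high, for the reads as they were assigned. H2AC17 had 0 and 4 RNA counts against 2512 and 2893 footprint counts, and H2BC10 had 2 and 1 against 2400 and 2527. With the genes of 0 RNA counts at their bounds, the median over 57 genes was 2.23.

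mRNAs from the 2 genomes that build the respiratory chain mostly stood at opposite ends. OXPHOS complexes combine proteins made by ribosomes in the mitochondrion from mitochondrial DNA with many more that are made in the cytosol. Whether the footprints of both kinds of ribosome were recovered alike was not tested. The ratios of mitochondrially encoded mRNAs are therefore not a like measure of translation beside those of cytosolic mRNAs. Of the 13 mitochondrially encoded mRNAs, 10 were low (7 at least 2-fold) and 3 high (2 at least 2-fold). MT-CO1, the core of cytochrome oxidase, had 20234 and 20849 CPM in RNA and 8825 and 7649 CPM in footprints (-1.25 ± 0.14, adjusted p = 5.12e-08). It nevertheless had more footprint counts than any other protein-coding gene, with no correction for length. MT-ND4, a complex I subunit, was the lowest at -1.97 ± 0.15, and MT-ND5, another, was at 0.44 ± 0.11. MT-ATP8 and MT-ND3 were at 2.33 ± 0.20 and 1.48 ± 0.13. MT-ATP8 overlaps MT-ATP6 (-1.52) and MT-ND4L overlaps MT-ND4, so their reads cannot be told apart where they overlap. MT-ND6 (-1.01 ± 0.08) is encoded on the other strand of mitochondrial DNA, and whether counting used strand is not given in the sources used here. Together the 13 genes took 7.78% and 8.18% of RNA counts and 4.23% and 3.70% of footprint counts.

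Nuclear-encoded OXPHOS subunits were high in 65 of 77 genes, 44 of them at least 2-fold, and low in 5, 3 of them at least 2-fold. Their share rose from 1.09% and 1.09% of RNA counts to 2.19% and 2.27% of footprint counts. ATP5F1B, the catalytic subunit of ATP synthase, had 1045 and 1056 CPM in RNA and 1970.4 and 2163 CPM in footprints (1.04 ± 0.08, adjusted p = 6.96e-11). COX4I1, a cytochrome oxidase subunit, was at 0.73 ± 0.08, and ATP5F1A, the partner of ATP5F1B in the synthase head, at 0.16 ± 0.09 (adjusted p = 0.108, and 0.29 and 0.00902 with the counts of its 7 named pseudogenes). The lowest of the 5 was UQCR11, a small subunit of complex III, with 93.5 and 89.7 CPM in RNA and 13.6 and 10.5 CPM in footprints (-2.87 ± 0.11). The others were the complex I subunits NDUFA13 (-2.74 ± 0.15), NDUFC2 (-0.97 ± 0.18) and NDUFV2 (-0.96 ± 0.25) and the complex II subunit SDHD (-1.65 ± 0.12). With named copies added NDUFV2 stood at 1.93 and SDHD at 0.28. Mitochondrial ribosomal proteins were high in 65 of 75 genes (43 at least 2-fold) and low in 4 (2 at least 2-fold). MRPS15 was at 1.05 ± 0.07 and MRPL3 at 0.51 ± 0.08, while MRPS27 was low at -0.37 ± 0.07 and MRPL12 was one of the lowest genes of all (52.4 and 55.0 CPM in RNA, 2.81 and 2.99 CPM in footprints, -4.14 ± 0.18).

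Genes of protein quality control were mostly high. Of 34 proteasome genes 31 were high, 22 at least 2-fold, and 1 was low. PSMB2, a subunit of the catalytic core, had 332 and 329 CPM in RNA and 963 and 984 CPM in footprints (1.63 ± 0.07, adjusted p = 1.52e-14), and PSMB4 was at 0.91 ± 0.08. The lid and base subunits PSMD3 and PSMD2 were at 0.82 ± 0.07 and 0.44 ± 0.08. Of 18 ER chaperones 14 were high (7 at least 2-fold) and 1 low. CALR, a lectin chaperone, had 540.4 and 532 CPM in RNA and 1301 and 1283 CPM in footprints (1.33 ± 0.09), and HSP90B1, the ER form of HSP90, was at 1.26 ± 0.10. Among 21 chaperonin and heat shock genes 15 were high (6 at least 2-fold) and 3 low. CCT3, of the chaperonin ring, was at 0.57 ± 0.09. The abundant cytosolic chaperones lay lower: HSPA8 was low with 1107 and 1074 CPM in RNA and 620.0 and 666 CPM in footprints (-0.70 ± 0.14) and HSP90AB1 at -0.39 ± 0.15 (adjusted p = 0.0198, lost without either footprint library or without the first RNA library, 0.0576 to 0.0814). HSPA8 has 17 named pseudogenes and HSPD1, the mitochondrial chaperonin, 18. Adding their counts moved HSPA8 to -0.38 and HSPD1 from -0.01 to 0.59.

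Housekeeping metabolism and the cytoskeleton were also on the high side. Of 16 glycolysis genes 14 were high (6 at least 2-fold) and 1 low. ENO1, enolase, had 1593 and 1574 CPM in RNA and 3729 and 3768 CPM in footprints (1.31 ± 0.12), ALDOA, aldolase, was at 1.26 ± 0.08, PKM, pyruvate kinase, at 1.02 ± 0.12 and GAPDH at 0.74 ± 0.12. GAPDH has 65 named pseudogenes and stood at 1.52 with them. Of 21 actin, tubulin and other cytoskeletal genes 20 were high (7 at least 2-fold) and none low. ACTB, beta-actin, had 3011 and 3065 CPM in RNA and 6455 and 6237 CPM in footprints (1.13 ± 0.09, adjusted p = 2.68e-10), but ACTG1, gamma-actin, had 1703 and 1751 CPM in RNA and 1714 and 1679 CPM in footprints (0.04 ± 0.09, adjusted p = 0.666, and 0.38 and 0.000364 with its 21 named pseudogenes). Of 22 cholesterol synthesis genes 15 were high (7 at least 2-fold) and 3 low. FDFT1, squalene synthase, was at 1.22 ± 0.07 and CYP51A1, lanosterol demethylase, at 3.39 ± 0.16. The 3 low members were SREBF2, a transcription factor of the pathway with 579.7 and 584 CPM in RNA and 345 and 335 CPM in footprints (-0.71 ± 0.08), INSIG1, which holds that factor's escort in the ER (-0.39 ± 0.09), and SCAP, the escort protein, at -0.22 ± 0.08 (adjusted p = 0.0136, and 0.0763 and 0.0822 without the first footprint or the first RNA library).

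Globin and heme synthesis genes were mostly high as well. Of 13 globin and heme synthesis genes with at least 2 CPM in both assays, 11 were high (5 at least 2-fold) and 1 low. HBZ, the embryonic zeta-globin, had 85.9 and 88.3 CPM in RNA and 328 and 330.0 CPM in footprints (1.98 ± 0.10, adjusted p = 3.66e-14). UROD and CPOX, enzymes of heme synthesis, were at 1.06 ± 0.08 and 0.75 ± 0.06. The alpha-globin genes HBA1 and HBA2, whose coding sequences match, were at 1.89 ± 0.12 and 2.38 ± 0.11, and ALAS2, the erythroid first enzyme of heme synthesis, was at 0.00 ± 0.07 (adjusted p = 0.965). Of 10 erythroid markers, some of them on the list above, 6 were high (2 at least 2-fold) and 1 low, with a median of 0.39. Of the transcription factors among them, GATA1 was at 1.15 ± 0.08, KLF1 at 0.00 ± 0.11 (adjusted p = 0.993) and TAL1, the low member, at -1.18 ± 0.12.

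Cell-cycle genes were mostly high. Of 27 mitosis genes 23 were high (9 at least 2-fold) and none low, with a median of 0.74, and of 31 DNA replication genes 20 were high (6 at least 2-fold) and 7 low, with a median of 0.48. With no filter on low counts the reference moved up by 0.20 on the log2 scale and 15 mitosis genes were high. PTTG1, securin, was the highest of the mitosis list at 1.45 ± 0.10, and CCNA2, cyclin A, had 200.3 and 205 CPM in RNA and 369 and 364 CPM in footprints (0.92 ± 0.08). The very long CENPF, a kinetochore protein, was at 0.04 ± 0.12 (adjusted p = 0.752). PCNA, the replication clamp, was at 1.59 ± 0.08 and MCM7, of the replicative helicase, at 0.88 ± 0.11, while CDT1, which loads that helicase, was low at -0.39 ± 0.08. Of 24 immediate early genes 10 were high (5 at least 2-fold) and 5 low. MYC had 445 and 447 CPM in RNA and 867 and 818 CPM in footprints (0.99 ± 0.09, adjusted p = 1.27e-09), whereas MCL1, a survival factor, was at -0.22 ± 0.07.

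mRNAs with a known translational control element were mostly on the low side, in short lists. Upstream reading frames catch scanning ribosomes before the main frame. Of 16 such mRNAs 9 were low (1 at least 2-fold) and 4 high (none 2-fold), with a median of -0.30. ATF4, the transcription factor of the integrated stress response, had 788 and 805 CPM in RNA and 619 and 585 CPM in footprints (-0.34 ± 0.09, adjusted p = 0.00172). SLC35A4 was the lowest with 146 and 143 CPM in RNA and 54.9 and 56.3 CPM in footprints (-1.31 ± 0.08), and MIEF1 was at -0.95 ± 0.07. Reads on the upstream frames themselves are part of these counts. CHAC1, EPRS1, CEBPB and DDIT3 were the 4 high members, at 0.71 ± 0.18, 0.69 ± 0.11, 0.52 ± 0.13 and 0.49 ± 0.14.

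The iron response element is a hairpin on which iron regulatory proteins sit when iron is scarce, blocking translation when it lies in the 5' leader and protecting the mRNA when it lies downstream of the coding region. Of 6 mRNAs with the element in the leader 4 were low (2 at least 2-fold). FTL, the ferritin light chain, had 1493 and 1512 CPM in RNA and 104 and 98.2 CPM in footprints (-3.82 ± 0.10, adjusted p = 3.18e-18). FTH1, the heavy chain, had 262 and 247 CPM in RNA and 59.96 and 56.6 CPM in footprints (-2.06 ± 0.13). With their 16 and 25 named pseudogenes the values were -3.61 and -1.77. SLC40A1, the iron exporter, was at -0.90 ± 0.09 and ALAS2 at 0.00. The list as a whole took 0.220% and 0.219% of RNA counts and 0.0575% and 0.0573% of footprint counts. Of 4 mRNAs with downstream elements 3 were low (1 at least 2-fold) and 1 high, with a median of -0.34. The lowest was CDC42BPA, a kinase, at -1.31 ± 0.09, followed by CDC14A, a phosphatase, at -0.41 ± 0.10 and SLC11A2, an iron importer, at -0.28 ± 0.08. The high member was TFRC, the transferrin receptor, which had 1236 and 1292 CPM in RNA and 1359 and 1738 CPM in footprints (0.36 ± 0.12, adjusted p = 0.00924, and 0.0998 with no filter on low counts, 0.266 without the second footprint library and 0.0582 without the first RNA library).

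Polyamine genes lay on both sides of the median mRNA. Of 12 genes, 7 were low (2 at least 2-fold) and 3 high (1 at least 2-fold). Their median was -0.22, and -0.24 with the counts of named copies added, but 0.32 over the 8 genes with no named pseudogene. OAZ1, the antizyme made through a ribosomal frameshift, had 839.9 and 874 CPM in RNA and 238 and 214 CPM in footprints (-1.86 ± 0.10, adjusted p = 9.53e-14), and AMD1, which makes the donor for spermidine, was at -1.37 ± 0.10. ODC1, the first enzyme of the pathway, was at -0.39 ± 0.09. Selenoproteins, whose mRNAs recode a UGA stop codon, were split: 8 of 16 were high (4 at least 2-fold) and 4 low (2 at least 2-fold). SELENOH was the highest with 33.0 and 32.6 CPM in RNA and 161 and 135 CPM in footprints (2.24 ± 0.12) and SELENOI and SELENON the lowest at -1.41 ± 0.13 and -1.30 ± 0.10. With no filter on low counts 5 selenoproteins were high. GPX4, the lipid peroxidase, was at -0.24 ± 0.09 (adjusted p = 0.0151, and 0.0845 and 0.0543 without the second footprint or the second RNA library).

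RNA helicases, the family of the series' target, centred on the median mRNA. DDX3X itself, before knockdown, had 254 and 240.1 CPM in RNA and 227 and 226 CPM in footprints. Its ratio of -0.06 ± 0.11 was not told apart from the median mRNA (adjusted p = 0.64), but it was -0.25 with an adjusted p of 0.0225 when no filter on low counts was used. Of 45 helicases 14 were high (1 at least 2-fold) and 13 low (2 at least 2-fold), with a median of -0.01, and 8 were high with no such filter. DDX17, a nuclear helicase, was low with 1417 and 1406 CPM in RNA and 403 and 379.5 CPM in footprints (-1.78 ± 0.08), and DDX1 was the highest at 1.01 ± 0.11. DDX39B, of mRNA export, was at -2.96 ± 0.14 and has a readthrough gene named after it. Of 16 splicing regulators, 6 were high (3 at least 2-fold) and 7 low (2 at least 2-fold). SRSF9 and TRA2B were at 1.42 ± 0.08 and 0.97 ± 0.08, SRSF10 at -0.62 ± 0.08 and SRSF2, the lowest, at -3.0 ± 0.14.

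Chromatin regulators, large nuclear proteins that modify or move nucleosomes, were low with few exceptions. Of 30, 28 were low (15 at least 2-fold), 1 was high and none was 2-fold high. KMT2D, a histone H3 methyltransferase, had 603 and 598 CPM in RNA and 220.1 and 209 CPM in footprints (-1.42 ± 0.08, adjusted p = 1.04e-12). Its relative KMT2C was at -1.53 ± 0.08, and the lowest members were TET3, a 5-methylcytosine oxidase, at -2.34 ± 0.09 and ASH1L, a further methyltransferase, at -2.13 ± 0.12. ARID1A, of the BAF complex, was at -0.73 ± 0.08. The single high member was SMARCA4, the BAF ATPase, at 0.25 ± 0.09 (adjusted p = 0.0103, and 0.0599 scaled to protein-coding totals, 0.659 with no filter on low counts and 0.165 without the first footprint library). In shares of counts the list went from 0.594% and 0.576% in RNA to 0.307% and 0.288% in footprints.

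Zinc finger genes with ZNF names, mostly DNA-binding repressors, were low in 221 of 351 genes, 91 of them at least 2-fold, and high in 24, 3 of them at least 2-fold. The list has 508 genes, of which 381 were tested. ZNF121 had 266 and 264 CPM in RNA and 63.5 and 68.0 CPM in footprints (-1.94 ± 0.10), ZNF451 was at -1.0 ± 0.11 and ZNF207 at -0.55 ± 0.10. ZNF595, with the most RNA counts of the list, was at 569 and 563 CPM in RNA and 681 and 683 CPM in footprints (0.34 ± 0.08, adjusted p = 0.000979, and 0.205 with no filter on low counts). Over the 169 tested ZNF genes with no overlapping gene and no named copy, whatever their level in each assay, the median was -0.48.

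**Figure D4:**
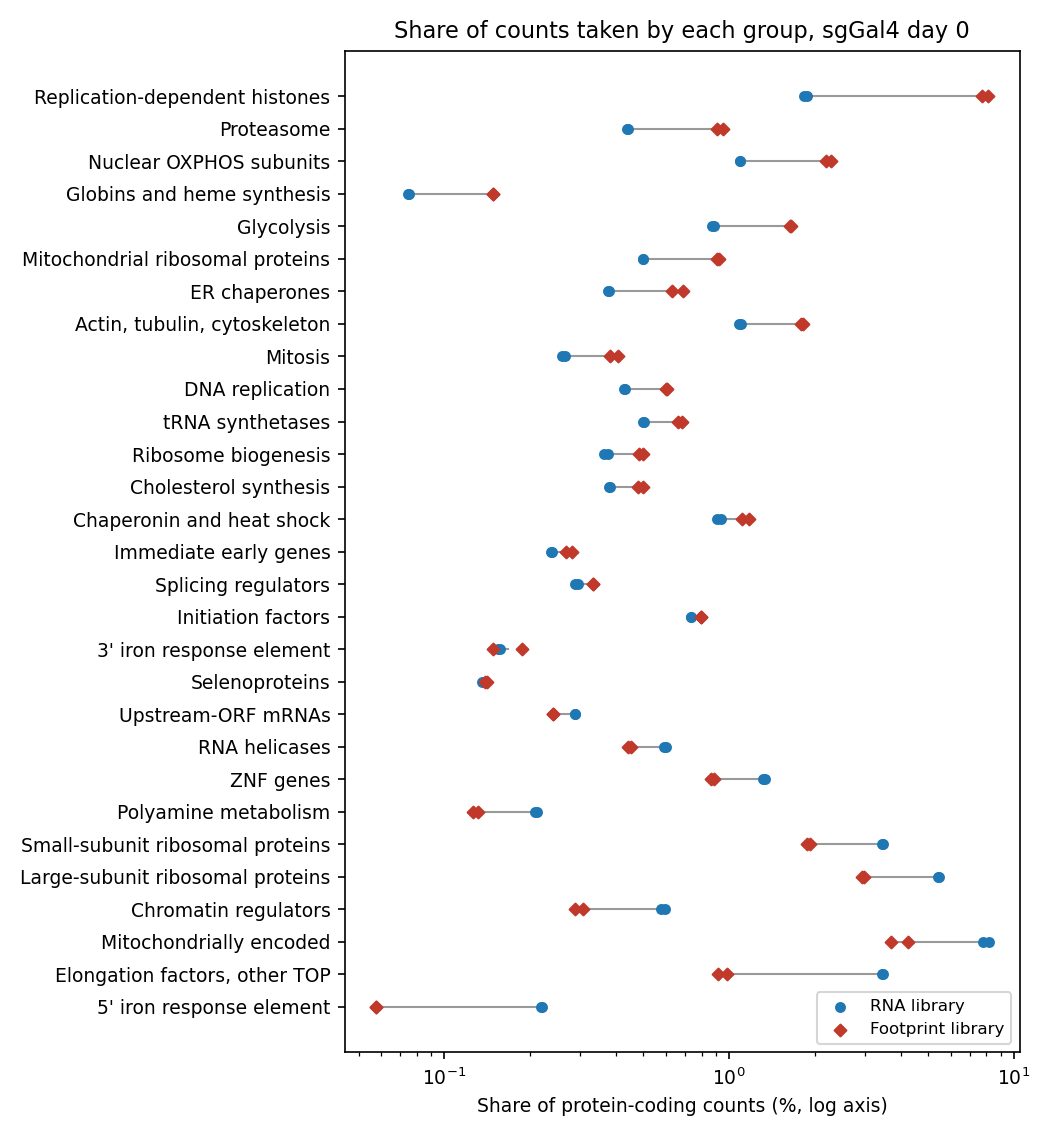
Share of all protein-coding counts taken by each group (log axis, %) in the 2 RNA libraries (blue circles) and the 2 footprint libraries (red diamonds) of sgGal4 cells at day 0, ordered by the ratio of mean shares. Histones go from 1.83% and 1.87% to 8.13% and 7.73%, and the 5' iron response element list from 0.220% and 0.219% to 0.0575% and 0.0573%.

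The 15 highest single genes were a mixture. They were taken from genes at least 2-fold high with at least 10 CPM on average and 2 CPM in each library, both replicates on the same side. UBE2L5 was first with 3.77 and 3.70 CPM in RNA and 346 and 326 CPM in footprints (6.55 ± 0.12), and it is a near-identical copy of UBE2L3, a ubiquitin-conjugating enzyme gene with 609 and 605 CPM in RNA and 674 and 694 CPM in footprints (0.24 ± 0.07). UQCRHL had 22.2 and 19.8 CPM in RNA and 493 and 468 CPM in footprints (4.58 ± 0.10), and UQCRH, the complex III gene it copies, had 650.2 and 658 CPM in RNA and 628 and 646 CPM in footprints (0.03 ± 0.08). POTEJ, which carries an actin-like region, was at 3.83 ± 0.12. For these copies the assignment of short footprints is uncertain. SHF, ZFHX3 and CTC1 have 2, 1 and 3 tRNA genes within their spans in the RefSeq table, with ratios of 4.70 ± 0.25, 4.23 ± 0.29 and 4.17 ± 0.14, and the part of those genes in the ratio was not tested. ZFHX3 also differed between its footprint libraries (829 and 1348 CPM). The others with no overlapping gene, small RNA gene or named copy were INKA1 (4.60 ± 0.26), TOR3A, an ATPase of the ER with 90.1 and 98.3 CPM in RNA and 1769 and 1641 CPM in footprints (4.25 ± 0.17), SMAD6, an inhibitor of BMP signalling with 34.2 and 36.6 CPM in RNA and 565 and 658 CPM in footprints (4.18 ± 0.17), H2BC6 (3.89), MTFP1, of mitochondrial fission (3.83 ± 0.20), and TOMM5, of the mitochondrial import pore (3.60 ± 0.16). Named copies are only pseudogenes and readthrough genes that carry the gene's name. Near-identical genes under other names, as H2BC6 has in its class, are not covered. IL32, a cytokine, was at 4.48 ± 0.23, KCTD1 at 3.88 ± 0.39 and TXNDC5, an ER oxidoreductase with a readthrough gene named after it, at 3.76 ± 0.15.

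Among the 15 lowest genes 6 have a readthrough gene named after them, a locus annotated across a gene and its neighbour: ZFP91 (104 and 107 CPM in RNA and 3.26 and 2.99 CPM in footprints, -5.01 ± 0.11), ARPC4 (-3.92 ± 0.17), BCL2L2 (-3.73 ± 0.14), TMED7 (-3.65 ± 0.16), ATF7 (-3.56 ± 0.18) and UBE2F (-3.42 ± 0.19). Over all 134 tested genes with such a partner the median was -0.73, with 44.0% at least 2-fold low and 20.1% at least 2-fold high, against 14.3% and 13.5% of all tested genes. Adding the partner's counts left ZFP91 at -4.56 and ARPC4 at -3.94, but reads that matched both loci, if left out at counting, are not in those values. HIGD1A, a hypoxia-inducible mitochondrial protein, had 66.3 and 68.8 CPM in RNA and 5.39 and 3.96 CPM in footprints (-3.80 ± 0.23), and with the counts of its 17 pseudogenes it stood on the other side of the median at 0.58. In that sum FTL was at -3.61, PABPC1 at -3.53 and EIF4B at -2.52. TUG1, long studied as a noncoding RNA and listed as protein-coding in the gene table, had 183 and 187 CPM in RNA and 10.6 and 7.82 CPM in footprints (-4.28 ± 0.16, adjusted p = 3.76e-16). TEX261, with no overlapping gene or named copy, had 88.4 and 93.2 CPM in RNA and 7.97 and 7.72 CPM in footprints (-3.46 ± 0.11). ECHDC2, an enoyl-CoA hydratase family gene, and TMA7 were at -4.21 ± 0.15 and -3.86 ± 0.15, and MRPL12 is given above.

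The ratios recurred in the other groups, which share no library with this one. Over 10550 genes the ratio in sgDDX3 cells at day 0 had a Pearson r of 0.978 with that in sgGal4 cells at day 0, as did sgGal4 cells at day 3 (0.978), and r was 0.962 for sgGal4 cells at day 14. Over all 11413 tested genes, in sgDDX3 cells at day 0, 1498 genes were at least 2-fold high (13.1%) and 1600 low (14.0%). Of the 1540 genes at least 2-fold high at baseline 1364 were called so there (88.6% of the baseline set, 91.1% of the other), and of the 1635 low genes 1425 (87.2% and 89.1%). Among genes with at least 2 CPM in both assays the shares called again were 975 of 1129 high genes (86.4%) and 1194 of 1375 low genes (86.8%). At day 3 in sgGal4 cells 1501 genes were at least 2-fold high (13.2%) and 1602 low (14.0%), sharing 1359 and 1403 with the baseline. At day 14 there were 1473 (12.9%) and 1540 (13.5%), sharing 1279 and 1325. The group medians recurred as well. In sgDDX3 cells at day 0 the medians over tested members were 2.17 for histones, 1.12 for nuclear OXPHOS, -0.90 for chromatin regulators and -1.02 for the mitochondrially encoded mRNAs.

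**Figure D5:**
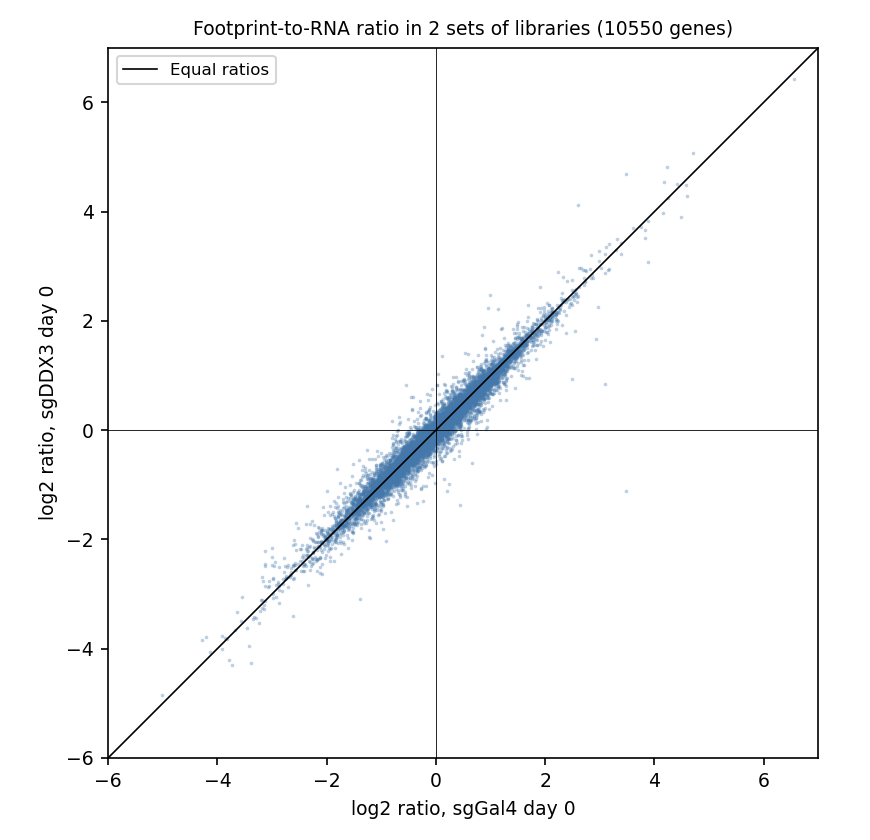
The log2 footprint-to-RNA ratio of 10550 protein-coding genes in sgGal4 cells at day 0 (horizontal axis) and in sgDDX3 cells at day 0 (vertical axis), from 4 libraries each, with the line of equal ratios. The points follow the line, with a Pearson r of 0.978.

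Tests of the difference itself found few genes. Between sgDDX3 and sgGal4 cells at day 0 the ratio differed in 0 of 11413 genes (0%) by edgeR and in 0 by DESeq2, and 231 genes (2.02%) had an unadjusted p under 0.05. Between day 3 and day 0 in sgGal4 cells it differed in 0 genes (0%) by edgeR and 0 by DESeq2, with 395 (3.46%) under 0.05 unadjusted. Between day 14 and day 0 in sgGal4 cells it differed in 3 genes (0.0263%), EGR3, TMEM117 and DGKE, with 1207 (10.6%) under 0.05 unadjusted. DESeq2 called 19 genes in that comparison and gave an adjusted p to 1273 of the 11413 genes, none of these 3 among them.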

How the data were processed

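The authors deposited 2 tables of read counts per gene, whole numbers with no normalization, one for footprints and one for RNA. The submitters' processing notes list cutadapt 3.4, Bowtie2 2.4.1, STAR 2.7.5a, DESeq2 and GRCh38 without their roles. Not given in the sources used here: the counting tool, the annotation release, the use of strand and how reads with several matches were treated. Per the labels' protocols, footprints were RNase I fragments from cells lysed with cycloheximide, purified on size-exclusion columns, and RNA was depleted of rRNA rather than selected for poly(A). The labels put each library in its group by title.

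Of 58037 rows, 45 PAR_Y rows were left out. Symbols came from a gene name table (40264 matched) and gene types from RefSeq, matched by symbol. One fit of edgeR 4.0.16 (quasi-likelihood F-test, R 4.3.3) covered all 24 libraries and the 16716 genes past the filter, with Benjamini-Hochberg adjustment over all of them, and the common biological coefficient of variation was 7.925%. Libraries were scaled to their protein-coding counts and by TMM within each assay, and one constant (-0.0668 on the log2 scale) set the median protein-coding gene to 0. The printed CPM values do not include that constant. Alternatives covered scaling, filters, DESeq2 1.42.0, a replicate block, left-out libraries and, added after seeing the data, summed copies and genes without overlaps.

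Members and lists were chosen with earlier results of these data known. Named by rule were the 15 highest and 15 lowest genes, the 10 with the most footprints, DDX3X, and up to 4 members with the highest RNA in each list. The lowest and highest member of a list, the exceptions to a list's direction, the parents of near-identical copies and the printed start sequences were chosen after their values were seen. Coding and transcript lengths and protein sequences were not used here. Results of 2 genes are not reported here.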

Additional observations from a re-analysis of the deposited data

Results flagged for a closer look

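Of the 3 comparisons of the ratio between groups, that of day 14 with day 0 in sgGal4 cells gave 3 genes whose difference passed by edgeR's quasi-likelihood test. EGR3, an immediate early transcription factor, had 0.838 and 1.01 CPM in RNA and 3.82 and 3.19 CPM in footprints at day 0, and 10.3 and 9.07 CPM in RNA and 9.05 and 7.95 CPM in footprints at day 14. Its log2 ratio went from 1.98 to -0.10, a difference of -2.08 ± 0.40 (SE, adjusted p = 0.0391). RNA moved more than footprints, and at day 0 RNA lay under 2 CPM. The call was lost without each of the 4 day 0 libraries, with adjusted p of 0.104 to 0.457, and with coding genes alone in the fit (0.0883).

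TMEM117, a membrane protein gene, had 9.15 and 11.7 CPM in RNA and 19.6 and 23.7 CPM in footprints at day 0, against 8.90 and 10.2 CPM and 48.7 and 71.5 CPM at day 14. The ratio went from 1.13 to 2.69, a difference of 1.55 ± 0.25 (adjusted p = 0.0133, and 0.113 without the first footprint library and 0.208 without the second RNA library). It was 2.22 in sgDDX3 cells at day 0 and 1.72 in sgGal4 cells at day 3. DGKE, a diacylglycerol kinase, had 24.4 and 21.6 CPM in RNA and 15.6 and 17.1 CPM in footprints at day 0, against 20.3 and 17.7 CPM and 36.1 and 45.6 CPM at day 14. The ratio went from -0.43 to 1.18, a difference of 1.61 ± 0.21 (adjusted p = 0.00214), and passed without each day 0 library in turn (0.00619 to 0.0192). It was 0.61 in sgDDX3 cells at day 0 and 0.14 in sgGal4 cells at day 3.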

How the results depend on the processing

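The counts of high and low genes held within 1.5 times under every scaling, filter, tool, block and left-out library, except 2. With no filter on low counts, which tests 18732 coding genes and moves the reference up by 0.20 (log2), 2491 genes were at least 2-fold high and 2738 at least 2-fold low, and the high members were 5 selenoproteins, 15 mitosis genes and 8 RNA helicases. Among the 4032 genes with no overlap, small RNA gene or named copy, fewer genes by construction, 1710 were high, 1279 low, 692 at least 2-fold high and 469 at least 2-fold low. Of 2694 values of 180 named genes under an alternative, 2642 kept their direction and side of the threshold, 28 lost and 23 gained a call, and 1 reversed: HIGD1A stood at 0.58 with pseudogenes added.

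Differences of the ratio between groups were less settled. With no filter 17 (sgDDX3 day 0), 14 (day 3) and 42 (day 14) genes differed from sgGal4 day 0, and at day 14 there were 6 with filterByExpr in both assays and 19 with DESeq2. Leaving out 1 library gave 1 to 3 at day 14, with 1 without the first footprint library and 1 without the second RNA library. Deviations of same-numbered footprint and RNA libraries correlated at -0.0454 in sgGal4 day 0, 0.0513 in sgDDX3 day 3 and between 0.1043 and 0.1865 in the other 4 groups (9426 genes), so the numbers were not taken as pairs. With the replicate block 4361 genes were high and 4322 low, 1543 and 1643 at least 2-fold, and 2, 1 and 19 differed in sgDDX3 day 0, day 3 and day 14. The cause of these changes was not tested. Footprints per coding length over RNA per transcript length, meant as a further alternative, was not run.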
